A study of Vitis vinifera with 2 samples.

Results

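Core promoter peaks of the transcription factor VlbZIP30 were described from chromatin immunoprecipitation followed by sequencing (ChIP-seq) in grapevine leaves. They are the peaks of the promoter class whose centre lay from -200 to 100 bp of the transcription start site (TSS) and for which the gene named in the promoter annotation equalled the nearest gene. Of the 49173 peaks, 6382 met this rule. They belonged to 6382 different genes, so no gene had 2 of them.

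One library was precipitated with an anti-FLAG antibody. The other served as control, and is called the IgG control here after its antibody label, although its title calls it input. Both came from 4-month-old Vitis vinifera plants that carried VlbZIP30 fused to 3 copies of the FLAG epitope and driven by the CaMV 35S promoter, a viral promoter active in most plant tissues. In both groups the plants had gone without water for 20 days, and their uppermost leaves were taken. Each group had 1 library, and the labels do not say how many plants or transgenic lines it holds. The authors deposited 1 peak list, so values below have no replicate error and no test between groups was possible. The antibody recognises the tagged protein made from the transgene, and whether the plant's own untagged protein binds the same places was not measured. The samples analysed here held neither plants without the transgene nor watered plants.

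VlbZIP30 is a basic leucine zipper (bZIP) protein. Plant bZIP proteins bind DNA as dimers, mostly at short elements with ACGT at their core, and one group of them acts in the response to the drought hormone abscisic acid through such elements in promoters. The core promoter is the stretch around the TSS where RNA polymerase II and its general factors assemble, whereas many sites of regulatory proteins lie further upstream. A ChIP-seq peak is a stretch in which precipitated fragments pile up, so it is wider than the bound site. No genome sequence of the build behind this list was used, and none of the 6382 gene identifiers matched the RefSeq gene table of 29591 genes (0 matches). Genes are therefore given by position, and no motif was searched.

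The rule took in most of what lay near a TSS. Core promoter peaks were 13.0% of the list (95% Wilson interval 12.7 to 13.3%) and 51.5% (50.6 to 52.4%) of its 12387 promoter-class peaks. The window from -200 to 100 bp held 6545 peaks of any class, and all 6545 were of the promoter class. The 163 that were left out had a promoter gene other than the nearest gene. Their median score was 14.3 (95% interval 11.08 to 17.5) and their median length 637 bp. All intervals here treat peaks as the units and cover counting error only. Intervals of medians come from the binomial distribution of ranks.

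The peaks lay over the TSS, as their choice nearly fixed: no peak of the list was shorter than 196 bp, so a centre close to the TSS places the peak across it. Of the 6382 core promoter peaks, 97.2% (96.8 to 97.6%) spanned the TSS itself. In 80.9% (79.9 to 81.8%) the TSS lay at least 100 bp inside both edges. The 177 peaks that stopped short of the TSS all lay upstream of it, which the window and the smallest length all but require, since downstream centres end at 100 bp. These had a median length of 260 bp, none was longer than 395 bp, and their median score was 4.50. Among 2895 peaks centred from -500 bp up to, but not at, -200 bp and chosen by the same class and gene match, here called proximal promoter peaks, 63.6% (61.8 to 65.3%) spanned the TSS. Among 2691 such peaks from -1000 bp up to, but not at, -500 bp, here called outer promoter peaks, 28.5% (26.9 to 30.3%) did. These shares follow largely from the distances by which the sets were chosen, and nothing is read from them.

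**Figure D1:**
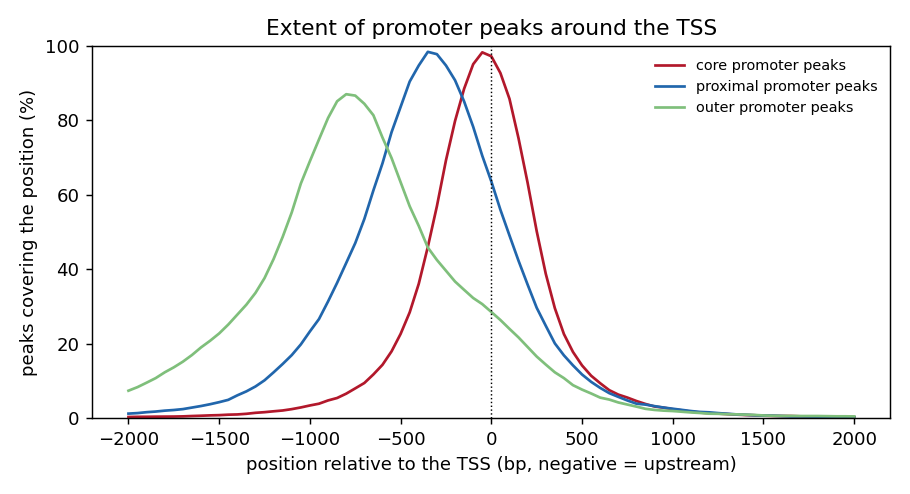
Share of core, proximal and outer promoter peaks (y axis, %) that cover each position around the TSS (x axis, bp, every 50 bp). Core promoter peaks cover the TSS in 97.2% of cases, a position 250 bp upstream in 69.3% and one 250 bp downstream in 50.3%.

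Away from the TSS the coverage by core promoter peaks dropped quickly on both sides. At 500 bp upstream 22.7% of them still covered the position, and at 500 bp downstream 14.2% did. At 1000 bp these shares were 3.43% upstream and 2.41% downstream. The median peak reached 330.5 bp upstream of the TSS (95% interval 323.5 to 335.5) and 250.5 bp downstream (245.5 to 255). A typical core promoter peak thus covered both sides of the TSS. The window for centres and the smallest length nearly fixed this, so nothing is read from it.

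Centres of core promoter peaks were most frequent close to the TSS, on both sides of it. Their median position was -37 bp (-40 to -34), with quartiles at -107 and 25 bp. These values depend on the limits of the window. The fullest 10 bp ran from -40 to -31 bp and held 280 core promoter peaks, and the next fullest ran from -30 to -21 bp with 270. By steps of 25 bp the counts were nearly level across the TSS. They were 626 from -50 to -26 bp, 632 from -25 to -1 bp, 617 from 0 to 24 bp and 606 from 25 to 49 bp. Of all members, 4149 were centred upstream of the TSS, 27 on it and 2206 downstream. The upstream part of the window is wider. Over equal widths, 2421 centres lay from -100 to -1 bp and 2206 from 1 to 100 bp, and the upstream side held more on 14 of the 19 numbered chromosomes. The centre is the midpoint of the called stretch, and the list gives no summit, so a position of the highest signal within the peak is not given here.

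**Figure D2:**
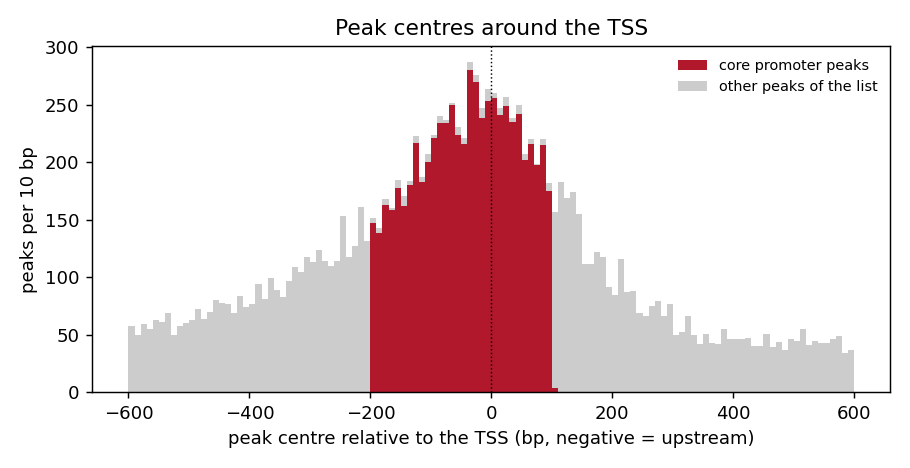
Number of peaks per 10 bp (y axis) against the position of their centre relative to the TSS (x axis, bp), with core promoter peaks in red and all other peaks of the list in grey. The red bars are highest from -40 to -31 bp, with 280 core promoter peaks, and grey bars continue without a step beyond both limits of the window.

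Both limits cut through a continuous distribution. Just inside the upstream limit, from -200 to -176 bp, lay 359 core promoter peaks with a median score of 14.2 and a median length of 674 bp. Just outside it, in the next 25 bp, lay 355 promoter peaks with medians of 14.3 and 694 bp. At the other limit, 476 core promoter peaks from 76 to 100 bp had a median score of 9.83 and a median length of 544.5 bp. The 449 peaks of any class in the 25 bp beyond 100 bp had medians of 9.85 and 585 bp, and 336 of them were classed as exon, 55 as intron, 42 as transcription termination site (TTS) and 16 as promoter. The change of class at this limit thus came with no visible change in score.

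The median score of core promoter peaks was above that of the list as a whole, while their share of the very highest scores was close to their share of the list. The score is the authors' own value per peak. Its scale is not named. It was used to rank peaks, to give medians and differences, and to count peaks above set scores. The size of a difference has no named unit. The median was 12.3 (11.96 to 12.6) for core promoter peaks, with quartiles at 6.21 and 23.4, against 7.56 for the whole list. Of the core promoter peaks, 32.7% (31.5 to 33.8%) were in the highest-scoring quartile group of the list (scores above 18.5), against 24.9% of all peaks. In the lowest-scoring group (scores up to 3.64) were 10.5% (9.77 to 11.3%) of them, against 26.6% of all peaks. Within the members 1377 different scores occurred, and the most frequent, 5.48, was shared by 129 peaks.

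The share that core promoter peaks took of the list was greatest at middle to high scores. It was 5.11% (4.75 to 5.50%) in the lowest quartile group of the list and 11.8% (11.2 to 12.4%) in the next one up. It was 18.6% (17.9 to 19.3%) in the group above that and was 17.0% (16.4 to 17.7%) in the highest. Among the peaks ranked in the first 1000 it was 13.4% (11.4 to 15.6%), or 134 of 1002 with ties. Among the first 100 it was 11.9% (6.93 to 19.6%), or 12 of 101. Proximal promoter peaks made up 2.38%, 4.22%, 7.45% and 9.71% of the 4 groups from the lowest to the highest, 11.9% of the first 1000 and 12.9% of the first 100. Of the core promoter peaks, 321 (5.03%) scored above 50, against 9.08% of proximal promoter peaks and 4.62% of the list. Above 100 were 16 core promoter peaks (0.251%), against 0.622% of proximal promoter peaks and 0.293% of the list.

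The order of core and proximal promoter peaks by score differed with and without regard to peak length. Core promoter peaks had a median score of 12.3, against 14.8 (13.9 to 15.7) for proximal and 11.6 (11.07 to 12.3) for outer promoter peaks. The difference of core minus proximal was -2.49 (-3.70 to -1.23, from the limits of both medians) and negative on 18 of 19 numbered chromosomes, with chromosome 5 the exception at 1.90. Core promoter peaks were also shorter. Their median length was 565 bp (553 to 573), against 814 bp (788 to 843) for proximal and 650 bp (623 to 680) for outer promoter peaks. Peaks of 1 kb or more were the minority in each set, and 84.1% of core, 61.8% of proximal and 63.1% of outer promoter peaks were shorter than that.

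Among peaks of like length the order was the other way round. When promoter peaks were sorted into 10 groups by length, core promoter peaks scored above proximal ones in 9 groups, with a median difference of 1.09. In peaks from 625 to 747 bp long the median score was 17.7 for 774 core promoter peaks and 13.0 for 252 proximal ones, a difference of 4.72. The group of the longest peaks, from 1697 bp, was the exception, with medians of 33.4 for 284 core and 33.6 for 338 proximal promoter peaks. Set against outer promoter peaks, core promoter peaks scored higher in 10 of 10 length groups, with a median difference of 3.44. Peaks of 1 list are not independent replicates, so these differences are descriptions and were not tested. Score and length were related across the 6382 core promoter peaks (Spearman rho 0.639), as they were across the whole list (0.676). Both values come from the same piled-up fragments.

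**Figure D3:**
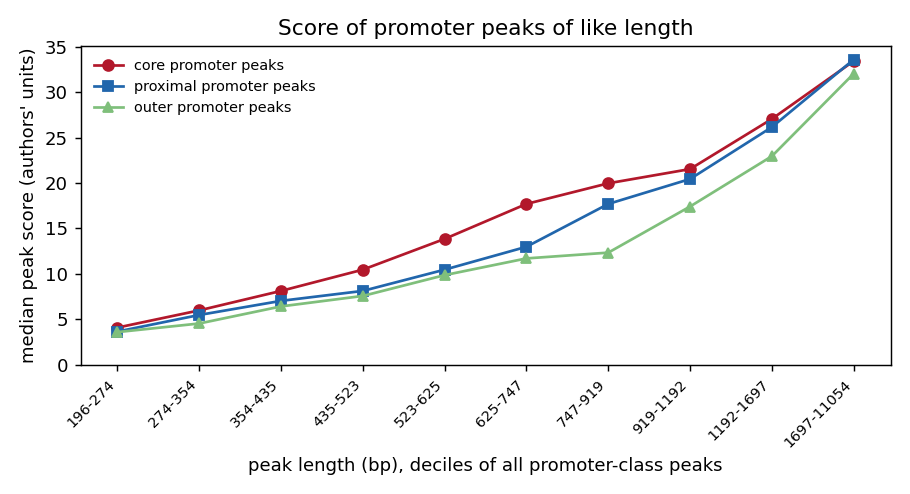
Median peak score in the authors' units (y axis) in 10 groups of peak length (x axis, bp), for core (red circles), proximal (blue squares) and outer (green triangles) promoter peaks. Core promoter peaks have the highest median in each group except the longest, where proximal promoter peaks have 33.6 and core promoter peaks 33.4.

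Within the window, scores were higher upstream of the TSS than downstream of it. Core promoter peaks centred from -200 to -101 bp had a median score of 13.9 (13.0 to 14.9, n = 1728) and those from -100 to -1 bp one of 13.0 (12.3 to 13.5, n = 2421). Downstream, from 1 to 100 bp, the median was 11.07 (10.5 to 11.3, n = 2206). By steps of 25 bp the highest median was 14.97, from -150 to -126 bp, and the lowest 9.80, from 75 to 100 bp. In the same 2 steps, 40.2% (35.7 to 44.8%) and 26.6% (22.9 to 30.6%) of the members were in the highest-scoring quartile group of the list. Lengths differed less across the TSS, with a median of 549 bp from -100 to -1 bp and 542.5 bp from 1 to 100 bp.

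The gap between these neighbouring sides was also seen at like length. Upstream centres from -100 to -1 bp exceeded downstream ones by 1.91 in median score (0.985 to 3.09, from the limits of both medians). The sign was positive on 16 of 19 numbered chromosomes, where it ran from -1.55 to 6.39. It was positive in 8 of 10 groups of like length, with a median of 1.54. Over single members the relation was loose, with a Spearman rho of -0.102 between score and position across the 6382 peaks.

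**Figure D4:**
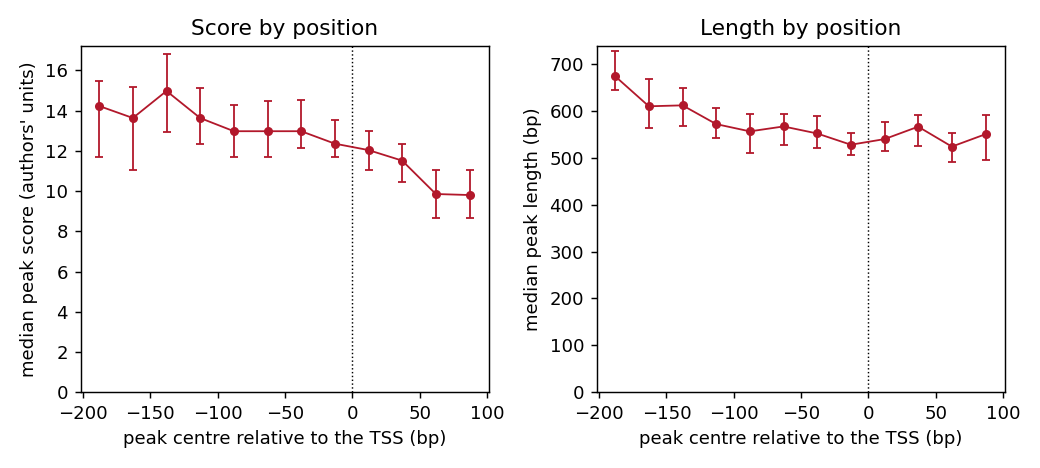
Median score in the authors' units (left, y axis) and median length in bp (right, y axis) of core promoter peaks in 25 bp steps of centre position (x axis, bp; the last step has 26 bp), with 95% intervals as bars. The median score is highest from -150 to -126 bp, at 14.97, and lowest from 75 to 100 bp, at 9.80, while the median length is 612 and 551 bp in these steps.

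Members of different score also differed in form. When split at their own quartiles, the lowest-scoring members (1604 peaks, up to 6.21) had a median length of 343.5 bp, and 92.3% (90.9 to 93.5%) of them spanned the TSS. The highest-scoring members (1596 peaks, from 23.4) had a median length of 859 bp, and 100% (99.8 to 100%) spanned it. No member longer than 395 bp stopped short of the TSS. The spanning shares thus follow largely from length and the window, and nothing is read from them. Median centres were at -28 bp in the lowest and -58 bp in the highest group. Upstream centres made up 60.3% (57.9 to 62.7%) of the lowest and 72.2% (70.0 to 74.4%) of the highest group.

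The highest-scoring core promoter peak lay on the sequence named Un (13862274 to 13863372), at the gene VIT_00s0216g00060. It had a score of 147.9, was ranked 7 in the list, and its 1099 bp ran from 723.5 bp upstream to 375.5 bp downstream of the TSS on the minus strand. The second, with 124.9, lay on chromosome 2 (988684 to 989550), centred 138 bp upstream of the plus-strand TSS of VIT_02s0025g01020, a gene with 3 other peaks. Next in order, a peak with 123.3 lay on chromosome 12 (8047604 to 8049241). Coordinates are those of the authors' list, whose genome build is not given in the sources used here.

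The remaining members of the 10 with the highest scores were spread over 7 sequences. A peak on chromosome 6 (6317886 to 6320016) scored 121.7 and was centred 78 bp downstream of its TSS. One more on the sequence Un (25818903 to 25819729) scored 117.3. On chromosome 1, a peak of 3140 bp (12210606 to 12213745) scored 116.5 and was centred 8 bp upstream of its TSS. A peak on chromosome 7 (4812699 to 4813793) scored 116.5, and one on chromosome 16 (19699289 to 19700667), the single peak of its gene, scored 114.2. The last 2 lay on chromosome 17 (7676631 to 7677561, score 113.4) and chromosome 14 (20500079 to 20501131, score 113.1). Of the 10, 8 were centred upstream of the TSS, and all 10 spanned it.

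Long members were rare. Only 49 core promoter peaks, or 0.768% (0.581 to 1.01%), were 3 kb or longer, against 1.76% (1.34 to 2.31%) of proximal, 3.20% (2.60 to 3.93%) of outer promoter peaks and 2.44% of the list. These 49 had a median score of 38.0, and 9 of them lay on chromosome 18, which held 459 of all 6382 core promoter peaks. No other chromosome held more than 4 of the 49. The longest had 11054 bp on chromosome 7 (4826841 to 4837894), at VIT_07s0005g02480. It reached 5662 bp upstream and 5392 bp downstream of the minus-strand TSS and scored 48.4. The second, of 8601 bp, lay on chromosome 18 (9006212 to 9014812) at VIT_18s0001g10690 and scored 65.03. The next 3 measured 7279 bp on chromosome 7 (15501841 to 15509119), 7114 bp on chromosome 8 (11732888 to 11740001) and 6942 bp on chromosome 4 (18418292 to 18425233). Each of these 4 was the single peak of its gene. At the other end, 5 members had the smallest length, 196 bp, with scores from 2.09 to 6.11. The lowest-scoring member, at 1.30, was 283 bp long and lay on chromosome 16 (18748663 to 18748945).

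For 2076 of the 6382 genes (32.5%, 31.4 to 33.7%) the core promoter peak was the only peak assigned to the gene. The other 4306 genes (67.5%, 66.3 to 68.6%) had 9715 further peaks between them. In the list as a whole, 12847 of the 20152 genes with a peak had 2 or more. A further peak was present at 74.5% (72.9 to 76.1%) of genes with a proximal and 82.1% (80.6 to 83.5%) of genes with an outer promoter peak. Core promoter peaks that were alone at their gene were lower and shorter, with a median score of 11.07 (10.1 to 11.4) and a median length of 484 bp. With 2 other peaks at the gene the medians were 13.8 and 626 bp, and with 4 or more they were 15.7 (14.3 to 16.7) and 691.5 bp. A peak counts for a gene when that gene has the nearest TSS, so the number also depends on how far away the next gene is.

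Further peaks lay on both sides of the TSS, and those upstream scored higher. Another peak was present upstream at 43.7% (42.5 to 44.9%) of the genes and downstream at 48.3% (47.1 to 49.6%), with 24.6% having both. The nearest lay at a median of 1720 bp upstream and 1723 bp downstream. Its median score was 8.12 (7.89 to 8.68, n = 2789) upstream and 3.64 (n = 3085) downstream. Peaks from -3000 to -1001 bp, of which there were 2276, had a median score of 8.12, and the 2153 from 1001 to 3000 bp one of 4.08. Closest to the window, the 625 peaks from 101 to 1000 bp downstream had the lowest median, 3.21. Upstream, the 404 further peaks within 1000 bp of the TSS were also low, with a median of 5.98 against 8.12 for those from -3000 to -1001 bp. Both sets hold only peaks of genes that also had a separate core promoter peak. Without that condition, the 449 peaks in the 25 bp beyond 100 bp had a median of 9.85. How this choice bears on the low medians was not tested.

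**Figure D5:**
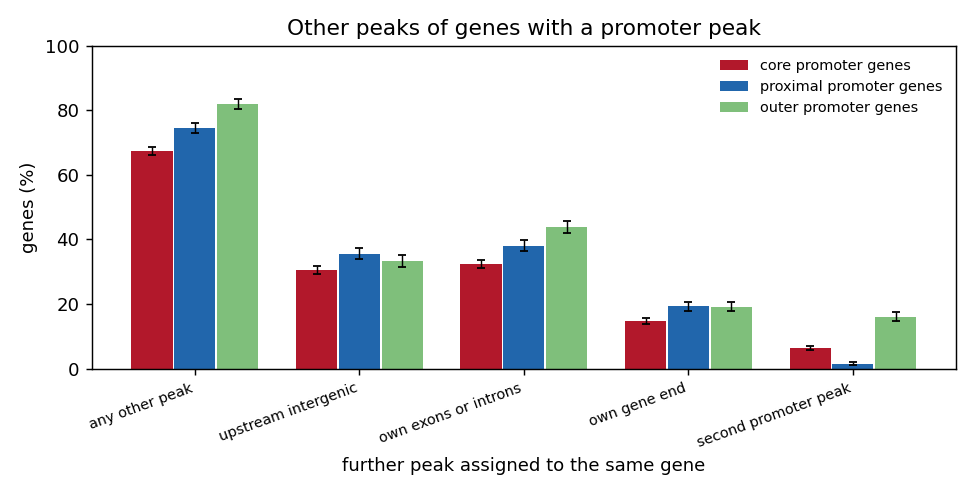
Share of genes with a core (red), proximal (blue) or outer (green) promoter peak (y axis, %) that also have a further peak of each kind (x axis), with 95% Wilson intervals as bars. For genes with a core promoter peak the shares are 67.5% for any other peak, 30.5% upstream intergenic, 32.4% in the gene's own exons or introns, 14.7% at its own end and 6.33% for a second promoter peak.

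Set against other peaks of the same gene, the core promoter peak mostly scored above peaks in the gene and not above peaks upstream of it. Where a gene also had a peak in its own exons or introns (2069 genes, 32.4%), the core promoter peak scored above the best of these in 83.1% (81.4 to 84.6%). The median scores were 14.2 for the core promoter peak and 3.64 for the best peak in the gene. Where the gene had a peak at its own end (937 genes, 14.7%), the core promoter peak scored higher in 70.5% (67.5 to 73.4%), with medians of 14.5 and 5.98. Where there was an upstream intergenic peak (1946 genes, 30.5%), the core promoter peak scored higher in 48.3% (46.04 to 50.5%), with medians of 14.5 and 15.7 for the best upstream peak. The median difference within these genes was -0.688 (-1.24 to 0.218). The parts next to the core promoter showed the same order. Proximal promoter peaks scored above the best peak in exons or introns in 80.1% of such genes. They scored above the gene end peak in 71.9% and above the upstream intergenic peak in 50.2%. For outer promoter peaks these shares were 72.2%, 61.9% and 47.8%. Taking the best of several peaks favours the side that has more of them.

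Scores of the 2 peaks of a gene were at most loosely related. Across the 2069 genes with a peak in exons or introns, Spearman rho was -0.0110. It was 0.152 across the 937 genes with a peak at the gene end and 0.146 across the 1946 with an upstream intergenic peak. Genes are not independent replicates, and both values of a pair come from the same libraries. In the 4306 genes with more than 1 peak, the core promoter peak held the highest score in 58.8% (57.3 to 60.2%). For proximal and outer promoter peaks the same share was 58.0% (55.9 to 60.04%) and 50.3% (48.2 to 52.4%).

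A second promoter peak was found at 404 of the genes (6.33%). It was centred at a median of -852.5 bp, between -1000 and -418 bp, and the 2 centres were at least 425 bp apart. Both peaks were small. The core promoter peak of these genes had a median score of 8.12 (6.98 to 8.68) and a median length of 455 bp, and the second one 5.98 (5.19 to 6.49) and 393.5 bp. The core promoter peak was the higher one in 55.4% (50.6 to 60.2%) of these genes. The median distance between the 2 centres was 818 bp (806 to 836). Whether this spacing bears on the lengths was not tested.

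Most peaks at 1 gene with a core promoter peak numbered 13, reached by 3 genes. In these the core promoter peak was on chromosome 6 (4580323 to 4580988, score 14.2), chromosome 12 (22176266 to 22176517, score 7.15) and chromosome 1 (1989658 to 1990002, score 2.45). It was ranked 3, 5 and 12 among the peaks of its gene, and 11, 7 and 8 of the 13 peaks were intergenic. Peaks next to a core promoter peak, whatever their gene, lay at a median gap of 1156 bp (1103 to 1222) between edges, against 830 bp for proximal, 524 bp for outer promoter peaks and 711 bp for the list.

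Few core promoter peaks were found to cover the TSS of another listed gene. Such a TSS could be placed for the 12847 genes with 2 or more peaks, and 26 members (0.407%) covered one. The share was 0.484% for proximal and 0.297% for outer promoter peaks. For 11 of the 26 the strands of both genes were known, and in 9 of these the genes ran apart from each other, with a median of 506.25 bp between their TSSs. Genes with fewer peaks were not covered by this search, so 26 is a lower count. The 163 peaks of the window whose promoter gene was not the nearest gene are not members, so they do not enter this count. The median score was 13.6 (12.9 to 14.3) at 2184 plus-strand genes and 13.0 (12.3 to 13.7) at 2122 minus-strand genes, with intervals that overlap.

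Of the members, 118 (1.85%) belonged to genes with ENSRNA identifiers and 6264 to genes with VIT identifiers. The ENSRNA share was 1.44% in the whole list, 1.31% in proximal and 1.75% in outer promoter peaks. Median scores were 13.0 (10.07 to 15.2) at ENSRNA genes and 12.3 (11.96 to 12.6) at VIT genes, and median lengths 609 bp (522 to 680) and 564 bp (551 to 573). Both pairs of intervals overlapped. In all 6264 VIT identifiers the chromosome number named the sequence on which the peak lay.

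Core promoter peaks were spread over the genome much like the other peaks. On the 19 numbered chromosomes lay 6043 of them, on Un 235 and on 11 sequences named random 104. Their share of a chromosome's peaks ran from 11.4% (10.3 to 12.5%) on chromosome 1 to 14.7% (13.4 to 16.1%) on chromosome 5. Their number per Mb ran from 9.91 on chromosome 9 to 18.9 on chromosome 7. Median scores ran from 9.89 (8.64 to 12.3) on chromosome 16 to 13.9 (12.3 to 16.4) on chromosome 2, and median lengths from 498 bp on chromosome 16 to 620 bp on chromosome 18. Over 436 windows of 1 Mb, the number of core promoter peaks and that of other peaks were related (Spearman rho 0.916). The number of genes per window was not used here, so its part in this was not tested. The fullest window, on chromosome 7 from 1000001 to 2000000, held 48 core promoter peaks among 277 peaks, against a median of 11 per window. No core promoter peak lay in 19 of the windows.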

How the data were processed

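The authors deposited 1 annotated peak list, made from 1 anti-FLAG and 1 IgG control library. The tools named in the submitters' processing notes are BWA, MACS2 and HOMER, without roles. Versions, settings, genome build and annotation were not given in the sources used here. Columns for position, score, annotation and signed distance in bp to the nearest TSS are given per the file headers. The deposited score has no named scale; its lowest value, 1.30142, lies just above 1.30103, -log10 of 0.05. Peak lengths depend on the peak caller's settings. No read counts were used, so depth is unknown.

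Members were selected by class, gene match and distance. Length counts both end positions, and a peak is centred on its signed distance. TSS and strand were recovered for genes with 2 or more peaks, whose distances have to give 1 TSS within 2 bp. Shares have 95% Wilson intervals and medians 95% intervals from binomial ranks. Length groups are the deciles of promoter-class peaks. Functions were tested on simulated data. Software was matplotlib 3.10.9, scipy 1.17.1, pandas 2.3.3 and numpy 2.4.6 under Python 3.11.15. The named peaks are the 10 with the highest score, the 5 longest, the shortest and the lowest-scoring. Identifiers are printed for the first 2 and the longest 2; the genes with most peaks were singled out after their values were seen. The members and comparisons were chosen with earlier results of these data known. The motif and gene list steps needed sequence or names and were not run.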

Additional observations from a re-analysis of the deposited data

How the results depend on the processing

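Of 50 alternative values for 9 results, 27 stayed within the interval of the reported value, 21 moved out of it and 2 changed sign. Among the 50, the values with any annotation class repeat those without the gene match. All 6545 peaks of the window were of the promoter class, so the former are no separate check. The core minus proximal difference in median score, -2.49, was 1.19 with peaks under 1 kb and 1.09 within 10 length groups. Its sign was thus the other way round when long peaks were left out or peaks of like length were compared. With peaks under 1 kb, core promoter peaks were 14.0% of the list and 58.9% of the promoter class; 96.7% spanned the TSS, the median score was 10.5, the median length 499 bp, 26.02% were in the highest quartile group and 61.8% of genes had another peak. With the window from -100 to 100 bp these were 9.46%, 37.6%, 99.98% spanning, 11.8, 548 bp and 30.7%. Without the gene match, or with any annotation class, the shares were 13.3% and 52.8%. With peaks at or above the median score the shares were 17.7% of the list, 99.0% spanning and 39.8% of genes with another peak. With the TSS 100 bp inside both edges, 80.9% spanned it. Apart from the length groups and the stricter rule for spanning the TSS, each of these settings changes which peaks are counted. Beyond that the cause was not tested. The higher score upstream than downstream of the TSS, 1.91, ran from 1.54 to 2.11 over alternatives chosen after seeing the data. No paired analysis was possible because both groups hold a single library; leaving one out was likewise not possible. The motif alternative was not run. How sequencing depth, which is unknown, bears on weak peaks was not tested.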
